A study of Mus musculus with 10 samples.

Results

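The genes described here are the cyclins, cyclin-dependent kinases (CDKs) and CDK inhibitors that govern the G1 phase of the cell cycle. The 10 members were taken by gene symbol: the D-type cyclins Ccnd1, Ccnd2 and Ccnd3, the E-type cyclins Ccne1 and Ccne2, the kinases Cdk4 and Cdk6, and the inhibitors Cdkn1a, Cdkn1b and Cdkn2b. All 10 were listed in both tables of the series, among 17658 named genes in one and 16719 in the other, and all 10 passed the filter on low values in both. RNA-seq was performed on ASZ001, a mouse basal cell carcinoma (BCC) line selected for resistance to Smoothened inhibitors and grown here in low serum. SB431542 blocks ALK5, the type I TGFß receptor, and was applied at 10 µM for 24 h to 3 cultures against 3 DMSO cultures. T-5224, a small-molecule inhibitor of the transcription factor AP-1, was applied at 20 µM for 24 h to 2 cultures against 2 DMSO cultures of its own. All groups, controls included, share the mutations of this one line, and no second line was used in these tables.

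D-type cyclins bind CDK4 and CDK6, and the complexes phosphorylate the retinoblastoma protein RB, which frees E2F transcription factors to turn on E-type cyclins and the genes of DNA replication. Cyclin E with CDK2 completes that phosphorylation. The INK4 inhibitors, among them p15 (Cdkn2b), bind CDK4 and CDK6 alone, whereas the CIP/KIP inhibitors p21 (Cdkn1a) and p27 (Cdkn1b) bind cyclin-CDK complexes and inhibit CDK2. In normal epithelium TGFß is known to halt cells in G1 by raising p15 and p21 and lowering Myc, and cyclin D1 is a known target of AP-1. All of this is background. Only mRNA was measured here, and p27 in particular is known to be set largely by protein turnover.

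Values are RPKM, reads divided by gene length and library depth, as the authors deposited them. Fold changes are differences on log2(RPKM + 0.5), tested with limma across all genes of a table, and a gene is said to have risen or fallen where the Benjamini-Hochberg adjusted p was under 0.05. The 2 tables were normalised separately, so each inhibitor was set only against its own DMSO libraries and a difference between the inhibitors was not tested. As read from the steps of the lowest values, the depth of the libraries was roughly 31.7 to 51.5 M reads. DMSO replicate 1 of the SB431542 experiment stood apart, with an SD of 0.27 from its group over all genes on the log2 scale against 0.16 and 0.19 for replicates 2 and 3, and with the ribosomal transcript Rn45s at 770 RPKM against 2101 and 2155. Rn45s was also uneven between the T-5224 libraries, at 1862 RPKM in replicate 1 and 5184 in replicate 2, and its part in the results was not tested. All 6 keratinocyte markers were expressed in both tables. Their summed level went from between 9290 and 9457 to between 6532 and 6992 RPKM with SB431542. With T-5224 it went from between 11775 and 12421 to between 1687 and 1750 RPKM. Krt5 and Krt14 make up most of these sums, and the markers did not move as a set. Epcam rose with both inhibitors, from 114 to 134 RPKM with SB431542 and from 70.7 to 124 with T-5224. Trp63, Itga6 and Cdh1 did not pass the test with SB431542 and fell with T-5224. Summed markers of fibroblasts stayed at 4.13 RPKM or less in every library and those of melanocytes at 0.426 or less. The pan-leukocyte gene Ptprc was at 0.006 RPKM or less as a mean in every group. Among the immune markers Cd68 was at 17.6 RPKM in DMSO and 33.0 with T-5224, and the endothelial sum went from between 5.30 and 6.74 to between 2.74 and 2.99 RPKM with SB431542 and from between 10.9 and 12.0 to between 4.13 and 4.67 RPKM with T-5224, nearly all of it Pecam1. The defining endothelial and T-cell genes Cdh5 and Cd3e were at 0.035 RPKM or less in the libraries of the T-5224 table. The part of these shifts in the results below was not tested, and in bulk RNA fewer cells expressing a gene and less RNA per cell cannot be told apart.

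With the ALK5 inhibitor, 4 of the 10 members rose (Ccnd1, Ccnd2, Ccnd3 and Cdk6) and 2 fell (Cdkn1a and Cdkn2b), where 10.2% of the 10842 genes tested rose and 10.0% fell. No member passed 2-fold on the fitted scale, against 0.231% of genes that rose and 0.581% that fell past 2-fold. With the AP-1 inhibitor, 6 members fell (Ccnd1, Ccnd2, Ccne1, Ccne2, Cdkn1a and Cdkn1b) and 3 rose (Ccnd3, Cdk6 and Cdkn2b), where 39.4% of the 10809 genes tested fell and 40.3% rose. Past 2-fold, 2 members fell (Ccne1 and Cdkn1b) against 10.6% of genes, and 0 rose against 10.4%. Most genes tested thus passed with T-5224, so the members' counts there are read against a high background, and a departure from it was not tested. The members' median log2 fold change was 0.16 with SB431542, beside 0.01 over all genes tested, and -0.63 with T-5224, beside 0.00.

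**Figure D1:**
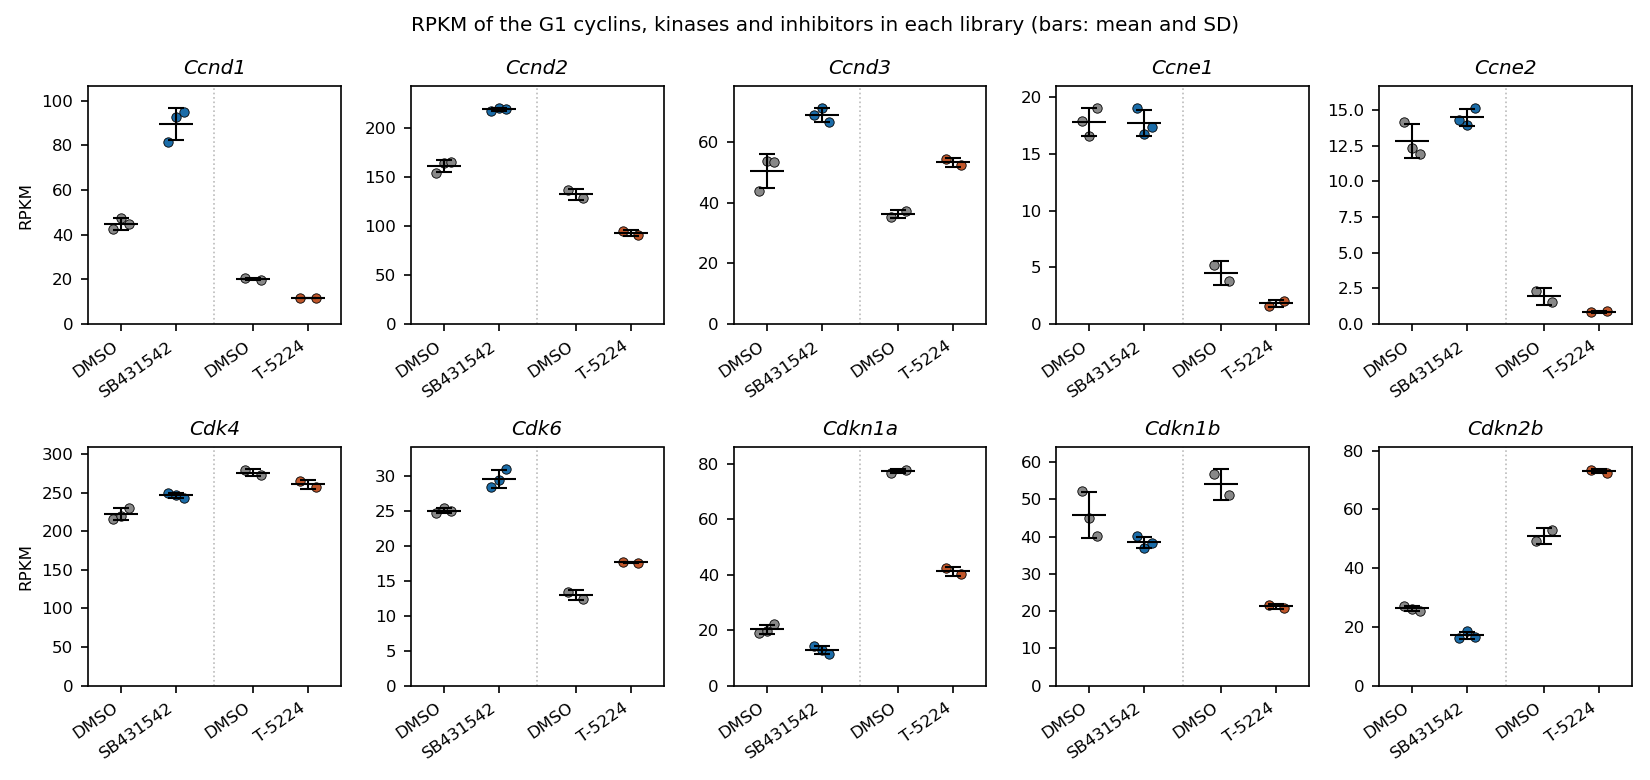
RPKM of each member in each library, with points for single libraries and bars for the mean and SD. The left 2 columns of a panel are the SB431542 experiment (3 DMSO, 3 treated) and the right 2 the T-5224 experiment (2 DMSO, 2 treated), normalised separately. All 3 Ccnd1 values with SB431542 lie above 81 RPKM and all DMSO values of that table below 48.

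**Figure D2:**
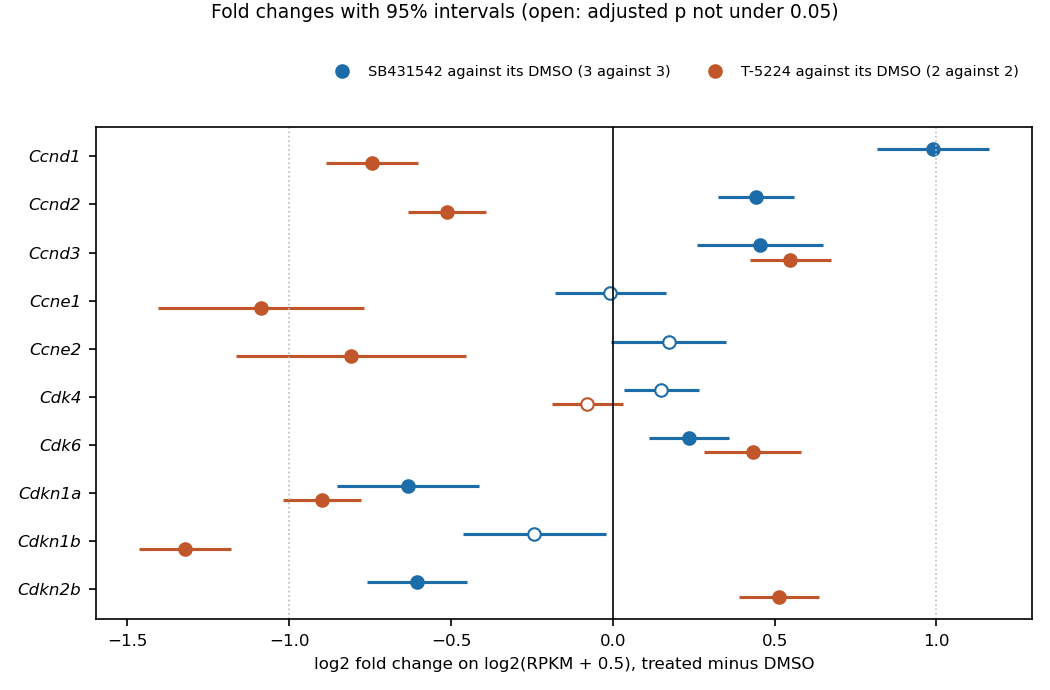
Log2 fold change of each member on log2(RPKM + 0.5), treated minus DMSO, with its 95% interval from limma. Filled points have an adjusted p under 0.05, and dotted lines mark a 2-fold change. Cdkn2b lies on the left with SB431542 and on the right with T-5224, whereas Cdkn1a lies on the left with both.

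In the DMSO libraries of the SB431542 table, Cdk4 was the most abundant member at 222 ± 7.57 RPKM (SD, n = 3), followed by Ccnd2 at 161 ± 6.14. Ccnd3 (50.3 ± 5.53), Cdkn1b (45.8 ± 6.11) and Ccnd1 (44.8 ± 2.48) came next, and their neighbouring ranges overlapped. Cdkn2b (26.3 ± 0.886), Cdk6 (25.1 ± 0.370), Cdkn1a (20.3 ± 1.77), Ccne1 (17.9 ± 1.23) and Ccne2 (12.8 ± 1.17) followed, with overlap between Cdkn1a and Ccne1. In DMSO of the T-5224 experiment, Cdk4 (276 ± 4.73 RPKM, SD, n = 2) and Ccnd2 (133 ± 5.62) again led, and Cdkn1a came next at 77.3 ± 0.743. Cdkn1b at 54.0 ± 4.09 and Cdkn2b at 51.1 ± 2.73 overlapped in range. Ccnd3 (36.2 ± 1.38), Ccnd1 (20.2 ± 0.508) and Cdk6 (13.0 ± 0.725) followed, and Ccne1 and Ccne2 were last at 4.53 ± 1.04 and 1.94 ± 0.581. Whether the DMSO cultures of the experiments differ was not tested.

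Ccnd1 (chr7:152115836-152125774 in mm9, minus strand) encodes cyclin D1, the D-type cyclin most often tied to mitogen signaling. It stood at 42.5, 47.4 and 44.7 RPKM in the DMSO libraries and at 81.5, 92.7 and 94.97 with SB431542. Every treated library was thus well above every control, and the mean doubled from 44.8 ± 2.48 to 89.7 ± 7.22 RPKM, 2.00 times the control (log2 fold change 0.99, SE 0.07, limma adjusted p = 3.109e-04). With T-5224 it went the other way, from 20.6 and 19.8 RPKM to 11.8 and 11.9, or 58.7% of its control (log2 fold change -0.75, SE 0.06, limma adjusted p = 7.250e-07). Of the exon bases of Ccnd1, 21.3% are shared with Oraov1 on the opposite strand, and the strand setting of the counting was not given in the sources used here. Oraov1 was at 2.50 RPKM or less in all 4 groups.

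Ccnd2 (chr6:127075797-127101066, minus strand) encodes cyclin D2 and was the main D-type cyclin of these cells in all 10 libraries. It rose from 154, 164 and 165 RPKM to 217, 221 and 220 with SB431542 (log2 fold change 0.44, SE 0.05, limma adjusted p = 0.00178). The 3 treated libraries lay within 4 RPKM of one another and above every control. With T-5224 it fell from 137 and 129 RPKM to 95.2 and 90.7, or 70.0% of its control (log2 fold change -0.51, SE 0.05, limma adjusted p = 4.371e-06).

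Ccnd3 (chr17:47642000-47736632, plus strand), the gene of cyclin D3, rose with both inhibitors. The DMSO libraries held 44.0, 53.7 and 53.3 RPKM and the SB431542 libraries 68.9, 71.2 and 66.6, with no overlap (log2 fold change 0.45, SE 0.08, limma adjusted p = 0.0113). Its rise with SB431542 missed the threshold without SB431542 replicate 1 (limma adjusted p = 0.0501) or replicate 2 (0.0581). With T-5224, Ccnd3 rose from 35.3 and 37.2 RPKM to 54.3 and 52.2, 1.47 times its control (log2 fold change 0.55, SE 0.06, limma adjusted p = 3.478e-06), so that it left the other D-type cyclins, which fell. Ccnd3 shares 15.7% of its exon bases with Bysl on the opposite strand, and Bysl was itself at 17.4 RPKM in DMSO and 31.4 with T-5224. Reads of the shared bases cannot be told apart without the strand setting.

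Summed over the family, D-type cyclin mRNA stood at 256 ± 13.8 RPKM in DMSO and 378 ± 8.88 with SB431542 (SD, n = 3 each), and at 189 ± 4.74 and 158 ± 4.55 RPKM in the T-5224 experiment (SD, n = 2 each). The groups did not overlap in either experiment, where an exact two-sided permutation test can reach no lower than p = 0.10 with 3 against 3 and 0.333 with 2 against 2. The make-up of the pool shifted as well. Ccnd1 made up 17.5% ± 0.467 of the sum in DMSO and 23.7% ± 1.42 with SB431542, and Ccnd2 62.9% ± 1.09 and 58.0% ± 0.945. With T-5224 the share of Ccnd3 went from 19.2% ± 1.21 to 33.7% ± 0.0427, while that of Ccnd2 went from 70.2% ± 1.21 to 58.8% ± 0.296 and that of Ccnd1 from 10.7% to 7.50%.

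**Figure D3:**
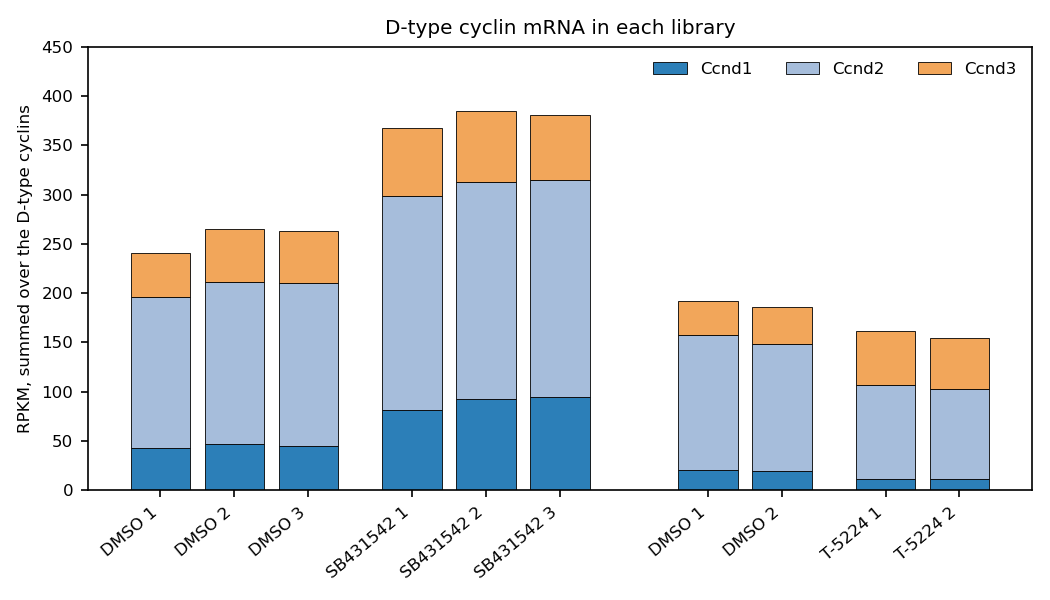
Stacked RPKM of Ccnd1, Ccnd2 and Ccnd3 in each of the 10 libraries. The 3 SB431542 libraries total 368 to 385 RPKM against 241 to 265 in their DMSO, and the T-5224 libraries total 155 and 161 against 186 and 193. The experiments were normalised separately.

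Ccne1 (chr7:38883003-38892553, minus strand), the gene of cyclin E1, did not pass the test with the ALK5 inhibitor. It stood at 18.0, 16.6 and 19.1 RPKM in DMSO and at 19.1, 16.8 and 17.4 with SB431542. These ranges overlapped nearly whole, and the log2 fold change of -0.01 had a 95% interval from -0.18 to 0.16 (limma adjusted p = 0.949). With T-5224 the gene fell from 5.26 and 3.79 RPKM to 1.64 and 2.06, 40.8% of its control (log2 fold change -1.09, SE 0.14, limma adjusted p = 2.755e-05).

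Ccne2 (chr4:11118498-11131926, plus strand), which encodes cyclin E2, stood at 14.1, 12.4 and 11.9 RPKM in DMSO and at 14.3, 14.0 and 15.2 with SB431542. The ranges overlapped through DMSO replicate 1, the library that stood apart (log2 fold change 0.17, 95% interval -0.004 to 0.35, limma adjusted p = 0.147), and without it the difference passed the test (log2 fold change 0.24, adjusted p = 0.00758). With T-5224 it fell from 2.35 and 1.53 RPKM to 0.829 and 0.913, or 45.0% of its control by RPKM (log2 fold change -0.81, SE 0.16, limma adjusted p = 6.887e-04). At this level the added 0.5 RPKM makes the fitted fold smaller than the ratio of the means. The lowest value rests on roughly 128 reads, for which counting alone gives an error of 8.83%. Ccne2 shares 17.4% of its exon bases with Ints8 on the opposite strand, which was at 14.2 to 17.6 RPKM in all groups, so that reads of Ints8 could form part of its value if strand was not used.

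Cdk4 (chr10:126500590-126504976, plus strand) passed the test with neither inhibitor. It stood at 216, 220 and 230 RPKM in DMSO and at 249.3, 247 and 242 with SB431542, without overlap (log2 fold change 0.15, 95% interval 0.03 to 0.27, limma adjusted p = 0.0718). Without DMSO replicate 1 this difference passed (log2 fold change 0.13, adjusted p = 0.0139). With T-5224 the values were 279 and 272 RPKM against 265 and 257 (log2 fold change -0.08, 95% interval -0.19 to 0.03, limma adjusted p = 0.165). That difference passed after median centring (log2 fold change -0.08, adjusted p = 0.0464) and after quantile normalisation (-0.23, adjusted p = 2.767e-04). Cdk4 shares 18.6% of its exon bases with Tspan31 on the opposite strand, which was at 105 RPKM in DMSO and 171 with T-5224.

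Cdk6 (chr5:3343893-3523218, plus strand) encodes the other partner of the D-type cyclins and was the lower of the pair by level, with Cdk4 at 8.85 ± 0.328 times its RPKM in the DMSO libraries of the SB431542 table (SD, n = 3). It stood at 24.8, 25.5 and 24.99 RPKM in DMSO and rose to 28.4, 29.5 and 31.0 with SB431542 (log2 fold change 0.23, SE 0.05, limma adjusted p = 0.0225). This is a small change on few libraries, and it was lost in 5 of the 6 fits that left out 1 library, where the adjusted p went up to 0.0993 without SB431542 replicate 3. It was kept only without DMSO replicate 1. With T-5224 Cdk6 rose from 13.5 and 12.4 RPKM to 17.7 and 17.6, 1.36 times its control (log2 fold change 0.43, SE 0.07, limma adjusted p = 1.124e-04). The ratio of Cdk4 to Cdk6 went from 21.3 ± 0.827 to 14.8 ± 0.251 with T-5224 (SD, n = 2) and from 8.85 ± 0.328 to 8.32 ± 0.484 with SB431542, where the ranges overlapped.

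The start-site regions of the 3 inhibitors are shown before their values, since Cdkn2b rose with T-5224 where Cdkn1a and Cdkn1b fell. The sequences are RefSeq promoters of GRCm38.p6, from 250 bases before to 50 after the start site, read 5′ to 3′ along the gene. Capitals mark matches to 7 motifs searched on both strands: the AP-1 site TGANTCA, the cyclic AMP response element TGACGTCA, the E-box CACGTG, the GC box GGGCGG bound by SP1, the SMAD box CAGACA, the SMAD palindrome GTCTAGAC and the E2F site TTTNGCGC. None of the marked matches overlaps another. Cdkn1a has 2 entries, and the one with a match is shown.
Cdkn2b, chr4:89310983-89311282, minus strand: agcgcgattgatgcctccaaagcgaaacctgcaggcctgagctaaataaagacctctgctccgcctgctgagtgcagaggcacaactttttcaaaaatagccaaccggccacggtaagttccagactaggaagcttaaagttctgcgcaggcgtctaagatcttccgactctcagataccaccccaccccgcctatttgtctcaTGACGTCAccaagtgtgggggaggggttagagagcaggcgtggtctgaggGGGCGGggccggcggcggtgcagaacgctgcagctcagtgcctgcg
Cdkn1a, chr17:29093519-29093818, plus strand: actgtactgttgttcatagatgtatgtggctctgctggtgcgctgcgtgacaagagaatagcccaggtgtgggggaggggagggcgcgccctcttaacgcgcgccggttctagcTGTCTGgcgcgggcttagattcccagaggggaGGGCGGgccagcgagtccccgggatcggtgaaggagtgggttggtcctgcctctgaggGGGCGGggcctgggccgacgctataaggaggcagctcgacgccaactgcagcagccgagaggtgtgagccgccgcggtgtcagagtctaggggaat
Cdkn1b, chr6:134920151-134920450, plus strand: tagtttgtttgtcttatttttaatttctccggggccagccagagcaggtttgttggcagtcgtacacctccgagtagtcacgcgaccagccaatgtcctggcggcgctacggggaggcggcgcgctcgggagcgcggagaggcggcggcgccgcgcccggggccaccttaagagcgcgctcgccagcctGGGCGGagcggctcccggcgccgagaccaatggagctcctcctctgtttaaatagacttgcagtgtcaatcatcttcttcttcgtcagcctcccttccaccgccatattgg

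Cdkn2b holds the cyclic AMP response element, which differs from the AP-1 site by 1 inserted base, with its first base at -46 from the start, and a GC box at 5. Cdkn1a holds the SMAD box as its reverse complement at -136 and GC boxes at -104 and -46, and Cdkn1b a GC box at -61. Of 32851 mouse promoters of this length, 1.79% hold the cyclic AMP response element, 21.0% the SMAD box and 35.7% the GC box. RefSeq promoters were matched for 7 of the 10 members in 9 entries. Ccnd1, Ccnd2 and Ccne2 had no entry, so their promoters were not searched for any motif. Of the 9 entries, 0 hold the AP-1 site, which 7.81% of all promoters do, and a departure from that share was not tested. Matches are letters in a short window and were not tested for binding.

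Cdkn1a (chr17:29227924-29237667 in mm9, plus strand), the gene of p21, fell with both inhibitors. It stood at 18.9, 19.6 and 22.3 RPKM in DMSO and at 14.3, 12.9 and 11.5 with SB431542. All treated values lay under all controls, at 63.7% of the control mean (log2 fold change -0.63, SE 0.09, limma adjusted p = 0.00526). In the T-5224 experiment it went from 76.8 and 77.9 RPKM to 42.4 and 40.2, or 53.4% (log2 fold change -0.90, SE 0.05, limma adjusted p = 3.526e-08).

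Cdkn1b (chr6:134870419-134875531, plus strand), the gene of p27, had the largest fitted fall of the 10 members with T-5224. It went from 56.9 and 51.1 RPKM to 21.7 and 20.9, or 39.4% of its control (log2 fold change -1.32, SE 0.07, limma adjusted p = 6.262e-09). With SB431542 the values were 40.1, 36.9 and 38.3 RPKM against 52.2, 45.0 and 40.1 in DMSO, where the closest libraries differed by less than 0.1 RPKM. The difference did not pass (log2 fold change -0.24, 95% interval -0.46 to -0.02, limma adjusted p = 0.111), and it passed only without DMSO replicate 3 (log2 fold change -0.33, adjusted p = 0.0387).

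Cdkn2b (chr4:88952198-88956941, minus strand) encodes p15, the INK4 inhibitor that TGFß is best known to induce. It fell with the ALK5 inhibitor from 27.3, 26.1 and 25.6 RPKM to 16.2, 18.6 and 16.6, or 65.1% of its control (log2 fold change -0.61, SE 0.07, limma adjusted p = 0.00157). The 3 controls lay within 2 RPKM of one another and far above the treated libraries. With T-5224 it rose from 49.1 and 52.99 RPKM to 73.5 and 72.6, 1.43 times its control (log2 fold change 0.51, SE 0.06, limma adjusted p = 5.719e-06).

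The ratios between these CDK inhibitors moved with T-5224, and less clearly with SB431542. The ratio of Cdkn2b to Cdkn1a by RPKM was 1.31 ± 0.149 in DMSO and 1.34 ± 0.179 with SB431542 (SD, n = 3), with overlap, whereas it went from 0.660 ± 0.0289 to 1.77 ± 0.0504 with T-5224 (SD, n = 2). Cdkn1b over Cdkn1a went from 2.29 ± 0.482 to 2.99 ± 0.284 with SB431542. The ranges did not overlap but nearly touched, at 2.76 in DMSO replicate 1, the library that stood apart, and 2.80 in SB431542 replicate 1. With T-5224 this ratio went from 0.698 ± 0.0595 to 0.515 ± 0.00557.

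Other genes of the G1 network were described by lists drawn up by role, and their counts stand beside the 10.2% of all genes tested that rose and 10.0% that fell with SB431542, and the 40.3% and 39.4% with T-5224. Of the other CDK inhibitors, Cdkn1c (p57) was at 1.22 ± 0.247 RPKM in DMSO and 2.46 ± 0.278 with SB431542 (log2 fold change 0.79, SE 0.13, limma adjusted p = 0.00694), and rose from 5.16 and 4.79 to 9.41 and 8.36 RPKM with T-5224 (0.78, adjusted p = 7.411e-06). It is the CIP/KIP relative of Cdkn1a and Cdkn1b and rose where Cdkn1a fell. Cdkn2a, next to Cdkn2b on the chromosome and the gene of p16 and p19Arf, whose transcripts a gene-level RPKM does not separate, overlapped between groups in both experiments, at 95.8 ± 8.89 and 92.8 ± 2.47 RPKM with SB431542 (adjusted p = 0.720) and a T-5224 log2 fold change of 0.03 (adjusted p = 0.636). With SB431542, 1 of the 4 rose and 0 fell, whereas 2 rose without DMSO replicate 1 or 3 and 1 fell without DMSO replicate 1. With T-5224, 2 of 4 rose (Cdkn1c and Cdkn2d), or 1 without T-5224 replicate 2.

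The genes of S phase act after the members. Of 13 S-phase genes, which carry out DNA replication, 11 rose and 0 fell with SB431542, with a median log2 fold change of 0.37 and all 13 estimates positive. The count fell to 5, 6 and 4 without SB431542 replicates 1, 2 and 3. Cdt1, which loads the replicative helicase, went from 28.4 ± 3.60 to 42.3 ± 1.51 RPKM (log2 fold change 0.58, SE 0.09, limma adjusted p = 0.00690). With T-5224, 8 of the 13 rose and 2 fell, beside 40.3% and 39.4% of all genes tested, among them Cdt1 from 6.57 and 6.60 to 31.1 and 31.0 RPKM (log2 fold change 2.15), and the helicase subunits Mcm2 (1.51) and Mcm5 (1.40), while Rrm2, a subunit of ribonucleotide reductase, fell by 0.87 on the log2 scale.

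Of 10 tested genes for the S-phase kinase and CDK activation, 5 rose and 1 fell with SB431542, and 3 rose without SB431542 replicates 1, 2 or 3. The 1 that fell, Mnat1, did so by 0.28 on the log2 scale and was lost without DMSO replicate 2 or any SB431542 replicate. With T-5224, 6 rose, 4 of them past 2-fold: the CDK-binding proteins Cks1b (1.60 on the log2 scale) and Cks2 (1.14), cyclin A2 (Ccna2, 1.20) and Cdk1 (1.08). No gene of this list fell, though 1 did without DMSO replicate 2. The E-type cyclins, which fell with T-5224, thus went against the later-acting Ccna2 and Cdk1.

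Of the RB, E2F and DP genes, 3 of 13 rose with SB431542 (E2f1, E2f2 and Tfdp1) and 0 fell. That count was 6 without DMSO replicate 1, 1 without SB431542 replicate 2 and 0 without replicate 3. With T-5224, 6 fell and 5 rose. E2f2, an activator of replication genes, fell from 2.79 and 2.59 to 1.03 and 0.863 RPKM (log2 fold change -1.14), and E2f4, which represses them in resting cells, rose from 21.5 and 23.3 to 53.1 and 51.8 RPKM (1.21). Of 13 subunits of the ubiquitin ligases that degrade G1 regulators, 2 rose and 1 fell with SB431542, Skp2, Dtl and Fbxw7 respectively. The count that rose was 1 without DMSO replicate 2 or any SB431542 replicate, and that which fell was 0 without any of the SB431542 replicates. With T-5224, 4 rose and 6 fell, and Dtl, part of the ligase that destroys Cdt1 and p21, rose by 1.18 on the log2 scale.

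Myc, which TGFß lowers as part of its cytostatic program, stood at 60.5, 49.2 and 47.9 RPKM in DMSO and at 48.2, 50.6 and 52.0 with SB431542, with overlap (log2 fold change -0.06, SE 0.09, limma adjusted p = 0.699). With T-5224 it rose from 31.8 and 36.3 to 78.4 and 77.2 RPKM (log2 fold change 1.18, limma adjusted p = 1.833e-08). Among 13 TGFß cytostatic factors, 2 rose (Id1 and Id2, inhibitors of basic helix-loop-helix factors) and 1 fell (Foxo1) with SB431542. The count that rose was 1 without DMSO replicate 2 or SB431542 replicate 3 and 0 without SB431542 replicate 1 or 2, and Foxo1 was lost without DMSO replicate 2 or SB431542 replicate 2 or 3. With T-5224, 6 fell and 5 rose, or 3 rose without either T-5224 replicate. Id2 fell from 58.0 and 56.1 to 2.38 and 2.85 RPKM (log2 fold change -4.21), Id3 from 120 and 131 to 9.68 and 8.80 (-3.69), and Id1 by 1.46 on the log2 scale, whereas Cebpb rose from 44.7 and 46.9 to 312 and 311 RPKM (2.75).

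Cdkn1a is also a classic target of p53, so other p53 targets were set beside it. With SB431542, 2 of the 20 tested rose and 2 fell, and Trp53inp1 was the 1 past 2-fold, at 8.98, 8.87 and 8.59 RPKM in DMSO and 4.65, 4.06 and 3.19 treated (log2 fold change -1.07, SE 0.12, limma adjusted p = 0.00159). It was no longer past 2-fold without SB431542 replicate 3. The count that fell was 4 without DMSO replicate 1 and 1 without SB431542 replicate 2 or 3, and the count that rose was 0 without DMSO replicate 2 or SB431542 replicate 2 or 3 and 1 without SB431542 replicate 1. With T-5224, 12 of 21 rose and 8 fell, beside 40.3% and 39.4% of all genes tested, with a median of 0.21, and the share that fell is near that background. Gadd45a rose from 8.44 and 9.63 to about 180 RPKM in both treated libraries (log2 fold change 4.25) and Plk3 by 3.32, while Trp53inp1 (-3.12) and Sesn1 (-2.15) fell. Fas rose by 2.71 on the log2 scale, from a low mean of 0.364 RPKM in DMSO to 5.14 with T-5224. The ratio of these means is 14.1, and the added 0.5 RPKM makes the fitted fold smaller.

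**Figure D4:**
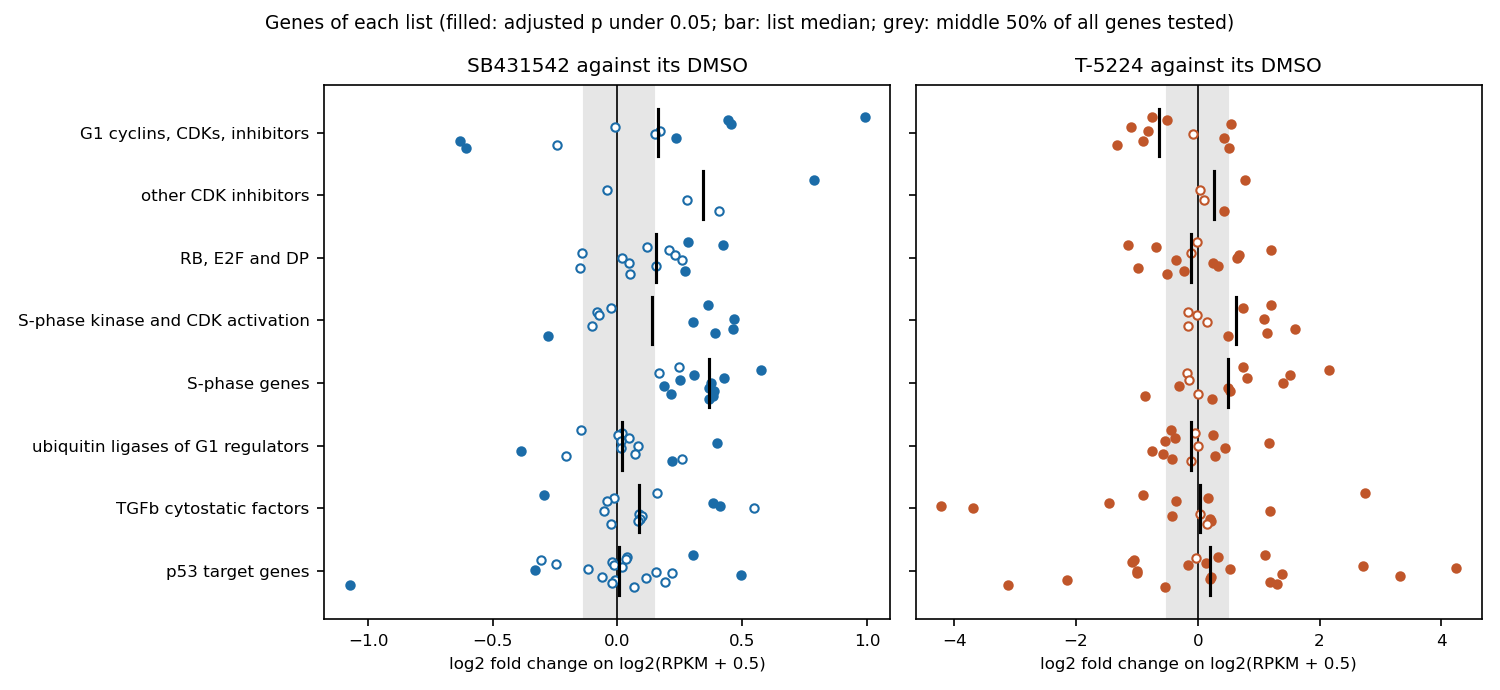
Log2 fold change of each gene tested in the lists, on log2(RPKM + 0.5), with SB431542 on the left and T-5224 on the right. The horizontal scales of the panels differ. Filled points have an adjusted p under 0.05, black bars are list medians, and the grey band holds the middle 50% of all genes tested (from -0.13 to 0.15 with SB431542 and from -0.50 to 0.50 with T-5224).

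To find genes that moved most like single members, the 10462 genes tested in both tables were ranked by the distance between their pairs of log2 fold changes (SB431542, T-5224). Nearest to Ccnd1 were Mir8091 (distance 0.17), Ly6c1 (0.26) and St3gal1 (0.28), and only 1 gene lay within 0.2. Rises past 2-fold with SB431542 were themselves rare, at 0.231% of the genes tested in that experiment. The count within 0.2 thus does not show how common a rise with SB431542 beside a fall with T-5224 was. Nearest to Cdkn2b were Klf11 (0.04), Porcn (0.09) and A630095E13Rik (0.10), with 22 genes within 0.2. Cdkn1a had 46 genes within 0.2, led by Zfp810, Fkbp14 and Hspa2, and Cdkn1b had 147, led by Ntf5, Stim1 and Gcc2.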

How the data were processed

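RNA of ASZ001 cells was sequenced as stranded mRNA libraries, in 2 or 3 biological replicates per condition. Per the labels, the authors used TopHat with the mm9 genome for alignment and HOMER for RPKM, without versions, and the strand setting is not given in the sources used here. The authors deposited 1 table of RPKM per inhibitor experiment, and all value columns were used (0 left out). DMSO columns 1 and 2 of the T-5224 table have the numbers 4 and 5 in the labels, so they were mapped to their group and not to single samples. Date-like gene names, 22 and 23 rows in the SB431542 and T-5224 tables, were dropped.

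Because RPKM are not counts, log2(RPKM + 0.5) was tested with limma 3.58.1 in R 4.3.3, with a mean-variance trend and two-sided p-values, over genes with a mean of at least 1 RPKM over the libraries of a table (10842 and 10809 genes). P-values were Benjamini-Hochberg adjusted over all genes tested, at a threshold of 0.05, and a change past 2-fold was counted beside it. The fit of each table held its DMSO and treated libraries, without a block. The tests were checked on simulated data with independent noise for each gene. The simulation held far fewer changed genes than were called with either inhibitor, and no library that stood apart. Alternatives were other pseudocounts, filters, scalings, no trend, a replicate block, and each library left out in turn.

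The members and lists were chosen with earlier results of these data known. Named genes are the 10 members, up to 4 genes of a list and experiment past 2-fold with the largest change, and Myc. The other list genes named in the text were chosen after their values were seen. The nearest genes are the 3 with the smallest Euclidean distance.

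RPKM of genes under 250 bases step by single reads. The depth was taken as that at which the largest share of these low values came out whole within 0.05 of a read. Over all such genes 46.3% to 62.7% of values were whole, so the depths are approximate. Over the 49 and 34 genes whose annotated length fitted every library the share was 89.3% to 100%. Those genes were kept because their values were near whole, so the higher share is no check of the depth. Counting errors cover sampling of reads only. Positions are from GENCODE on mm9.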

Additional observations from a re-analysis of the deposited data

How the results depend on the processing

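Of the 20 fold changes of members, 13 kept their direction and their side of the threshold under every alternative that tested them. Ccnd1, Ccnd2, Cdkn1a and Cdkn2b with both inhibitors were among them. So were Ccne1 and Ccne2 with T-5224, which the filter at a mean of 5 RPKM left untested. With SB431542, the count of members that rose was 4 in the fit as reported and from 2 to 6 when single libraries were left out, and the count past 2-fold that rose was from 0 to 1, since Ccnd1 at 0.99 lies on that limit. With T-5224, the count of members that fell past 2-fold was 2 as reported, 3 with a pseudocount of 0.1 (Ccne2 at a log2 fold change of -1.04), 1 with a pseudocount of 1, and 1 with a filter at a mean of 5 RPKM, which removes Ccne1 and Ccne2 from the test. Quantile normalisation also gave 2, with Cdkn1a at -1.01 and Ccne1 at -0.98. Over the alternatives run, single libraries left out among them, the log2 fold change of Ccne1 ranged from -1.30 to -0.876. That of Ccne2 ranged from -1.05 to -0.564, so both E-type cyclins crossed the 2-fold limit. Cdkn1b stayed past it, from -1.41 to -1.25. Ccne1 with SB431542 stood near zero, and its log2 fold change ranged from -0.0591 to 0.0380 when single libraries were left out.

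The labels number DMSO and SB431542 libraries alike, and a fit with the number as a replicate block took Cdk6 with SB431542 from an adjusted p of 0.0225 to 0.0699 at a log2 fold change of 0.23, so that 3 members rose. It changed no other call of a member. Deviations of libraries with the same number correlated at -0.15, 0.15 and -0.09 over genes, and those with unlike numbers at -0.17 to 0.20. These ranges overlap, and with 3 libraries per group the check cannot decide whether libraries with the same number were handled together. The T-5224 columns carry no shared numbers in the labels. The lowest value, of Ccne2 with T-5224, rests on roughly 128 reads.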
